A study of Rattus norvegicus with 20 samples.

Results

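The genes described here are those with higher RNA in the dorsal than in the ventral subiculum of the rat, in control and in preconditioned animals alike. A gene was a member when its mean over the 10 dorsal libraries was at least 5 CPM (counts scaled to the library's total), when that mean was at least 4 times the mean of the 10 ventral libraries, and when its lowest dorsal value exceeded its highest ventral value. The rule gave 54 of the 32883 gene IDs in the deposited table. They make up 0.501% of the 10777 genes with a dorsal mean of at least 5 CPM. The same rule with the regions exchanged gave 85 genes. The members were thus chosen by the dorsal and ventral levels of all 20 libraries, and the dorsal excess is described below and not tested.

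All animals were wild-type Wistar rats aged 3 months, and 4 groups of 5 libraries were sequenced. They were dorsal control, ventral control, and the same regions 24 hours after a protocol that the labels name preconditioning. According to the series title, acute seizures were induced by electric stimulation of the perforant pathway. The labels do not describe what the controls underwent, and they do not state that the libraries of a group came from separate animals, so p-values measure the spread between these samples. Tissue was collected by laser microdissection of cryostat sections, and each library is a bulk sample, in which fewer cells of a type and less RNA per cell cannot be told apart.

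The subiculum is the main output station of the hippocampal formation, placed between area CA1 and the presubicular and entorhinal cortex. Its dorsal part projects to the retrosplenial cortex and the mammillary bodies and is associated with spatial processing. Its ventral part projects to the amygdala, the nucleus accumbens and the hypothalamus and is associated with stress and emotional behaviour. Neurons along this axis are known to differ in gene expression, and the perforant pathway carries entorhinal input to the hippocampus and subiculum.

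The table lists Ensembl IDs without names. None of them (0 of 32883) could be matched to a table of 47357 RefSeq rat genes, because that table holds no Ensembl IDs. Genes are therefore given by ID, without functions or sequences. For the same reason 33 lists of marker genes and gene families were not run, and the dissected regions were not checked against markers of the subiculum, of its neighbours or of glia. CPM values are not per length, so levels are compared between libraries and not between genes. Totals ranged from 3087146 to 20463678 counts, and 3 counts corresponded to between 0.147 and 0.972 CPM. That floor covers counting error only.

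Dorsal means of the 54 genes ran from 5.10 to 643 CPM, with a median of 22.3 CPM. Ventral means ran from 0.405 to 93.8 CPM, with a median of 2.83 CPM. The ratio of the means had a median of 5.84. It lay between 4 and 5 for 17 genes, between 5 and 8 for 21, between 8 and 16 for 12, and above 16 for 4. The ratio was thus under 8 for most members. The ratio does not show how near a gene came to absence from the ventral region. For a gene with a low dorsal mean, a small ratio already puts the ventral mean near the floor. No member had 0 counts in all ventral libraries, and 3 members had 0 counts in at least 1 of them.

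**Figure D1:**
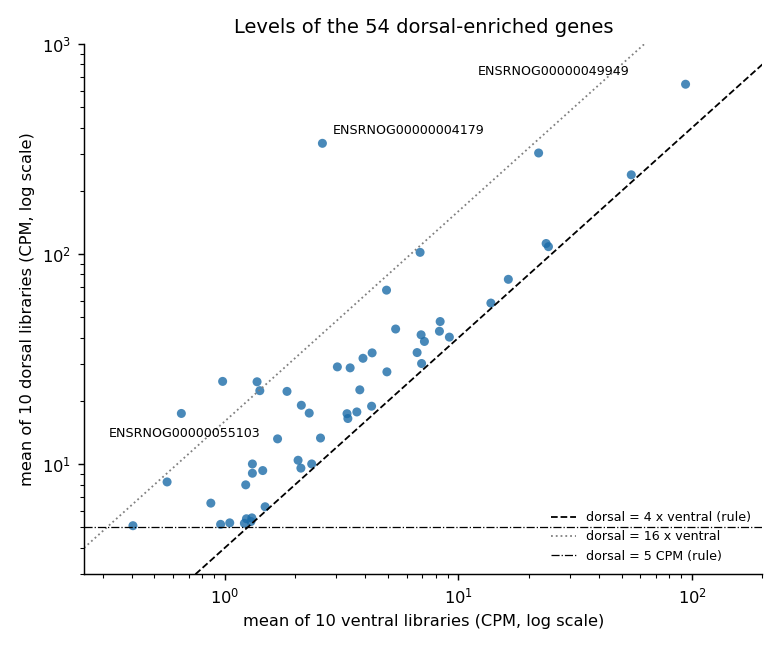
Mean CPM over the 10 ventral libraries (x axis) against mean CPM over the 10 dorsal libraries (y axis), both on log scales, with 1 point per member. The lines mark the limits of the rule and a ratio of 16. Most points lie close above the 4-fold line, and ENSRNOG00000004179 lies far from it, at 337 CPM dorsal and 2.62 CPM ventral.

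The gap between the regions was narrower than the means show. The lowest dorsal value divided by the highest ventral value had a median of 2.06 over the members and ranged from 1.06 to 12.9. At the edge of the rule, ENSRNOG00000017676 had the smallest ratio inside, 4.12, with 5.34 CPM dorsal and 1.29 CPM ventral. ENSRNOG00000009932 followed with a ratio of 4.22. Just outside were ENSRNOG00000022686, with a ratio of 3.996 at 93.4 and 23.4 CPM, and ENSRNOG00000014231, with a ratio of 3.99. Another 7 genes met the limits on level and ratio but overlapped between the regions, and in 5 of them a single dorsal library reached down to the ventral range. Their ratios lay between 4.27 and 18.0.

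The largest regional ratio, 129, belonged to ENSRNOG00000004179. In dorsal controls 1 to 5 it measured 355, 559, 210, 431 and 467 CPM, and in dorsal preconditioned libraries 1 to 5 it measured 252, 202, 249, 392 and 251 CPM. In ventral controls it measured 0, 0.382, 2.93, 15.6 and 1.15 CPM, and in ventral preconditioned libraries 0.538, 0.741, 1.79, 2.28 and 0.726 CPM. The dorsal values are all above 200 CPM, and ventral control 4 stands above the 9 other ventral libraries. It held 320 counts there, while each of the others held 18 or fewer.

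ENSRNOG00000055103 had the second largest ratio, 26.8. Its dorsal controls measured 30.5, 19.8, 18.3, 27.2 and 17.3 CPM, and its dorsal preconditioned libraries 9.69, 16.6, 7.78, 16.6 and 10.7 CPM. All 5 dorsal controls lay above all 5 dorsal preconditioned libraries. Ventral controls measured 0.648, 0.477, 0.813, 2.39 and 0.794 CPM, and ventral preconditioned libraries 0.108, 0.370, 0.224, 0.381 and 0.311 CPM. Ventral control 4 was again the highest ventral library.

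ENSRNOG00000049949 received the most reads of the set, with a ratio of 6.86. Dorsal controls measured 586, 631, 752, 851 and 698 CPM, and dorsal preconditioned libraries 738, 351, 546, 663 and 617 CPM. Ventral controls measured 80.0, 42.4, 116, 159 and 80.1 CPM, and ventral preconditioned libraries 78.1, 57.6, 155, 110 and 59.4 CPM. The treatment groups overlapped in both regions, and its 10 ventral values spanned a wider fold than its 10 dorsal values. Together with ENSRNOG00000004179 it held 33.7% of the summed dorsal level of the set.

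**Figure D2:**
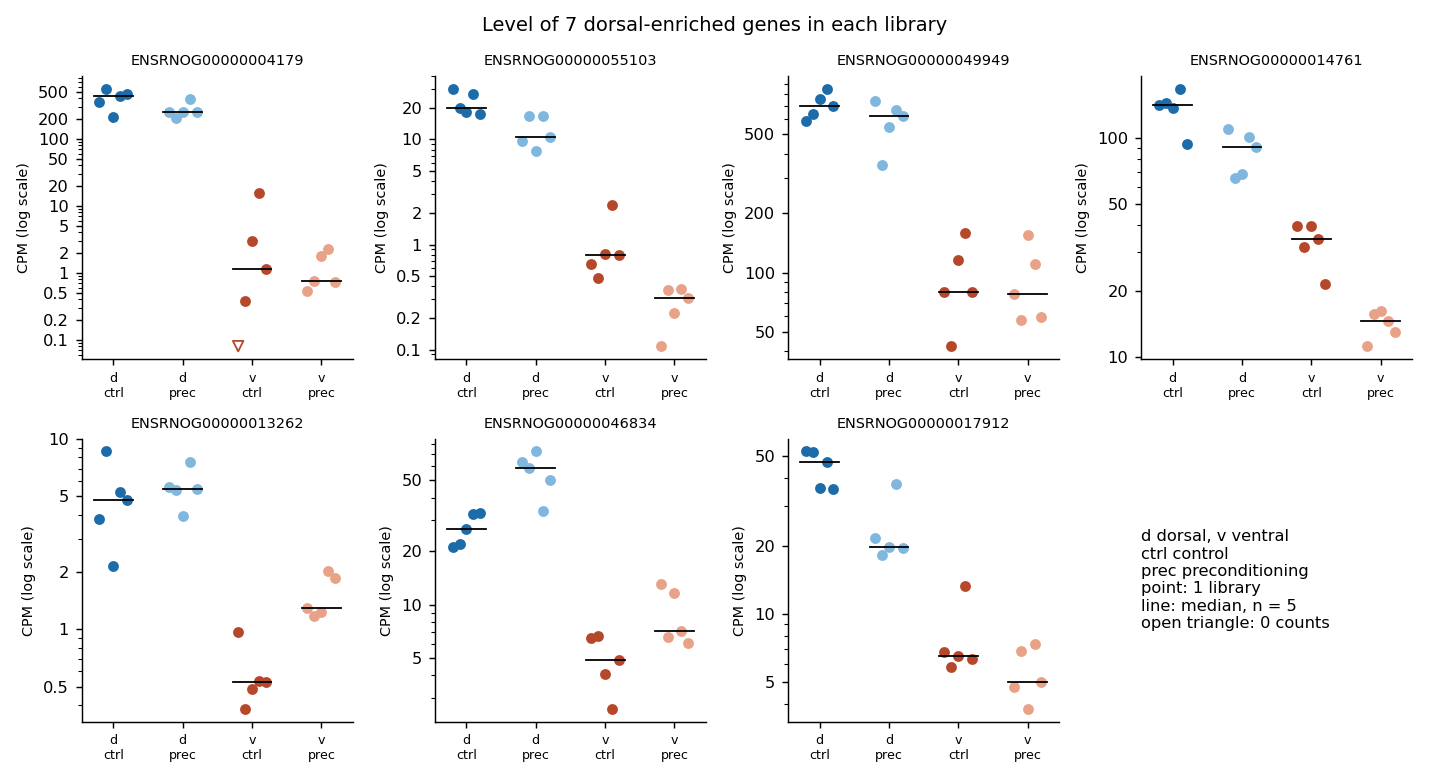
CPM on log scales (y axes) of 7 members in each library, with 1 point per library, the median of 5 as a line and 0 counts as an open triangle. The x axis gives the 4 groups, dorsal control, dorsal preconditioning, ventral control and ventral preconditioning. In every panel the 10 dorsal points lie above the 10 ventral points, as the rule requires, and ventral control 4 of ENSRNOG00000004179 lies at 15.6 CPM.

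The rule places every dorsal value of a member above every ventral value, so a dorsal excess in each condition was fixed in advance. Its size by condition is described here. Among controls the ratio of dorsal to ventral means was at least 4 for 50 of the 54 genes, with a median of 6.31 and a range from 3.68 to 101. Among preconditioned libraries it was at least 4 for 49 genes, with a median of 6.09 and a range from 3.26 to 221. The ratio was the higher in controls for 26 genes and the higher after preconditioning for the other 28, so the direction was split nearly evenly. The rule applied to the 10 control libraries alone gave 71 genes and applied to the 10 preconditioned libraries alone gave 74. The lists had 43 genes in common, 60.6% of the first and 58.1% of the second.

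Summed over the 54 genes, the level was 3217 ± 411 CPM (SD, n = 5) in dorsal controls and 2600 ± 438 CPM in dorsal preconditioned libraries. It was 429 ± 99.7 CPM in ventral controls and 365 ± 76.9 CPM in ventral preconditioned libraries. Dorsal controls 1 to 5 summed to 3182, 3690, 2607, 3482 and 3123 CPM, and dorsal preconditioned libraries to 2971, 2100, 2321, 3134 and 2474 CPM. The treatment groups overlapped, because dorsal control 3 was low and dorsal preconditioned libraries 1 and 4 were high. Dorsal control 3 held the lowest value of its group for 20 of the 54 genes and the highest for 2. Dorsal preconditioning 2 was mixed, with the lowest value of its group for 21 and the highest for 15. In the ventral region, control 4 had the highest sum, 580 CPM, against 302 to 460 CPM in the 9 others, and it held the highest of the 10 ventral values for 16 of the 54 genes.

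**Figure D3:**
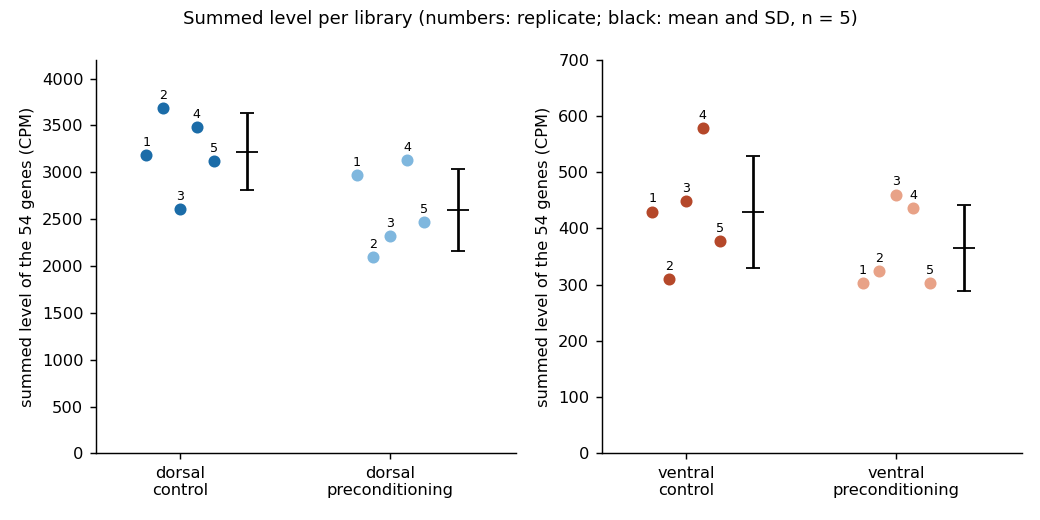
Summed CPM of the 54 members in each library (y axis, with separate scales for the dorsal groups on the left and the ventral groups on the right), numbered by replicate, with the mean and SD of 5 in black. Treatment groups overlap in both regions, and ventral control 4, at 580 CPM, is the highest ventral library.

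Within groups the members differed in how steady they were. The coefficient of variation over 5 libraries had a median of 27.8% in dorsal controls, ranging from 6.18% to 66.6%, and of 24.9% in dorsal preconditioned libraries. It had a median of 40.2% in ventral controls and 32.5% in ventral preconditioned libraries, where counts were lower. In the 10 dorsal libraries, deviations of log2(CPM + 0.5) from the group means correlated between members with a mean Pearson r of 0.176 over 1431 pairs. Over all pairs of the 10777 genes with a dorsal mean of at least 5 CPM the mean r was 0.0176. The members share libraries and the regional contrast that chose them, so these values are a description. Of the pairs of members, 67.6% were positive.

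Whether preconditioning changed these genes is a comparison that the rule did not use. In the dorsal subiculum all 54 were tested, and 0 were called by edgeR's quasi-likelihood test with Benjamini-Hochberg adjustment at 0.05, where 0.271% of all 13647 genes tested were. The estimates leaned downward. Of the 54 genes, 38 had a negative log2 fold change, with a median of -0.20, while 51.6% of all genes were negative and their median was -0.01. The members share the same libraries and vary together, so their number does not replicate the lean. A dorsal library's median log2 deviation of the members from its group had an SD of 0.193. It ran from -0.32 to 0.24 in controls and from -0.11 to 0.22 in preconditioned libraries. Without adjustment, 20 members had a p-value under 0.05, against 8.11% of all genes. Of these members 17 were lower after preconditioning, against 4.26% of all genes, and 3 were higher, against 3.85%. The 17 lower estimates ran from -1.16 to -0.25 on the log2 scale, and the 3 higher ones from 0.80 to 0.98. CPM ranges did not overlap between treatments for 5 members, 4 lower and 1 higher, against 2.23% of all genes. The number of members past the adjusted threshold depended on the test. It was 7 by DESeq2, against 167 of all 20612 genes, and 7 by limma-voom, against 165 of all 13647. In each case 5 were lower and 2 higher. By edgeR it was 3 without dorsal preconditioning 4, against 37 of all 13722 genes. It was 1 without dorsal control 3, dorsal preconditioning 1 or dorsal preconditioning 2, where 39, 21 and 50 of all genes were called.

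Nearest to the threshold in each direction were a pair of genes named after their values had been seen. ENSRNOG00000046834 measured 21.1, 22.0, 26.7, 32.3 and 32.7 CPM in dorsal controls and 63.5, 58.3, 72.7, 33.6 and 50.2 CPM in dorsal preconditioned libraries. The groups did not overlap, although preconditioned library 4 lay just above the highest control. Its log2 fold change was 0.98 (SE 0.19, edgeR adjusted p = 0.0549), and without that library it was 1.12 (adjusted p = 0.0122). Over the 16 alternative fits its dorsal adjusted p ran from 0.000392 to 0.161, and 11 of them did not call it. In the ventral region it measured 6.48, 6.68, 4.06, 2.59 and 4.85 CPM in controls and 13.1, 6.60, 11.7, 7.11 and 6.06 CPM after preconditioning, and the ventral log2 fold change was 0.90 (SE 0.29, adjusted p = 0.103). These ventral groups overlapped. The ventral adjusted p ran from 0.00808 to 0.232 over the 16 alternative fits, and 12 of them did not call it.

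ENSRNOG00000017912 measured 52.3, 51.8, 36.0, 47.2 and 35.8 CPM in dorsal controls. After preconditioning it measured 21.7, 18.3, 19.8, 37.6 and 19.5 CPM, and library 4 was the only one to reach the control range. Its log2 fold change was -0.99 (SE 0.21, edgeR adjusted p = 0.0725), and -1.23 without library 4 (adjusted p = 0.00801). Over the 16 alternative fits its dorsal adjusted p ran from 0.00141 to 0.242, and 11 of them did not call it. The highest-ratio genes also had negative dorsal estimates that edgeR did not call. For ENSRNOG00000055103 the log2 fold change was -0.94 (SE 0.22, edgeR adjusted p = 0.118), with an adjusted p of 0.00822 by DESeq2 and 0.0330 by limma-voom. The other 14 of 16 alternative fits did not call it, with an adjusted p of up to 0.321. For ENSRNOG00000004179 the log2 fold change was -0.65 (SE 0.24, edgeR adjusted p = 0.438). Among the 16 members with a ratio of at least 8, 12 had a negative dorsal estimate, and the median was -0.42. Among the other 38, 26 were negative, and the median was -0.18.

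In the ventral subiculum 49 of the 54 genes passed the filter on low counts. The 5 that did not had ventral means between 0.405 and 0.979 CPM, ENSRNOG00000055103 among them. Of the 49 genes, 2 passed the adjusted threshold in edgeR's test, 1 lower and 1 higher, against 5.06% of all 13291 genes tested. DESeq2 called 6 of 54, 3 in each direction, against 1051 of all 20572 genes. Limma-voom called 5 of 49, 3 lower and 2 higher, against 1508 of all 13291. Without ventral control 2, edgeR called 4 of 50, against 1029 of all 13338. Without adjustment, 14 of the 49 had a p-value under 0.05 in the main edgeR test, against 18.0% of all genes. Of these 8 were lower, against 8.71% of all genes, and 6 were higher, against 9.3%. These counts moved with single libraries. Without ventral preconditioning 1 there were 8, 3 of them lower, against 2173 and 1034 of all 13560 genes. Without ventral preconditioning 2 there were 9, 4 of them lower, against 2156 and 1038 of all 13316. Without ventral control 4 there were 11, 3 of them lower, against 2048 and 1009 of all 13325. Without ventral control 1 or ventral preconditioning 5, 5 were lower, against 998 of all 13521 and 1252 of all 13335 genes. CPM ranges did not overlap between treatments for 4 members, against 6.99% of all genes. Of the 49 estimates 30 were negative, or 61.2%, against 52.1% of all genes. The median log2 fold change was -0.12, and it was -0.01 over all genes. Without ventral control 4 the median of the members was 0.01, and 24 of the 49 estimates were negative.

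The gene that fell was ENSRNOG00000014761. It measured 39.5, 31.7, 39.5, 34.4 and 21.6 CPM in ventral controls and 11.2, 15.7, 16.1, 14.6 and 13.0 CPM after preconditioning, without overlap. Its log2 fold change was -1.20 (SE 0.17, edgeR adjusted p = 0.000762), and it was called in each of the 16 alternative fits. In the dorsal region it measured 142, 144, 138, 168 and 94.2 CPM in controls and 110, 65.4, 68.9, 101 and 91.0 CPM after preconditioning. Dorsal control 5 lay inside the preconditioned range, and the dorsal log2 fold change was -0.71 (SE 0.18, adjusted p = 0.158). The ventral minus the dorsal response was -0.49 on the log2 scale (SE 0.25, adjusted p = 0.789), so a different response was not shown.

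The gene that rose was ENSRNOG00000013262, a member with low counts. It measured 0.972, 0.382, 0.488, 0.538 and 0.529 CPM in ventral controls, from 3 to 11 counts each, and 1.29, 1.17, 1.23, 2.03 and 1.87 CPM after preconditioning, from 11 to 36 counts each. The groups did not overlap. Its log2 fold change was 1.53 (SE 0.33, edgeR adjusted p = 0.0138), with adjusted p-values from 0.0101 to 0.0482 over the 16 alternative fits. In the dorsal region it measured 3.80, 8.61, 2.16, 5.29 and 4.77 CPM in controls and 5.56, 5.42, 3.96, 7.56 and 5.46 CPM after preconditioning. Those groups overlapped, and the dorsal log2 fold change was 0.16 (SE 0.31, adjusted p = 0.937). The ventral response exceeded the dorsal one by 1.37 on the log2 scale (SE 0.48, adjusted p = 0.525), which did not pass the threshold.

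The most dorsal gene shows how far 1 ventral library could carry a ventral estimate. ENSRNOG00000004179 had an estimated ventral change of -1.99 on the log2 scale (SE 0.84, edgeR adjusted p = 0.225), and of 0.01 (SE 0.67, adjusted p = 0.995) without ventral control 4. For ENSRNOG00000017912 the ventral controls measured 6.80, 5.82, 6.50, 13.3 and 6.35 CPM, with control 4 again the highest. Control 4 held the highest value of its group for 24 of the 54 members and the lowest for 1. Dorsal tissue in that sample was not tested, since marker genes have no names here.

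**Figure D4:**
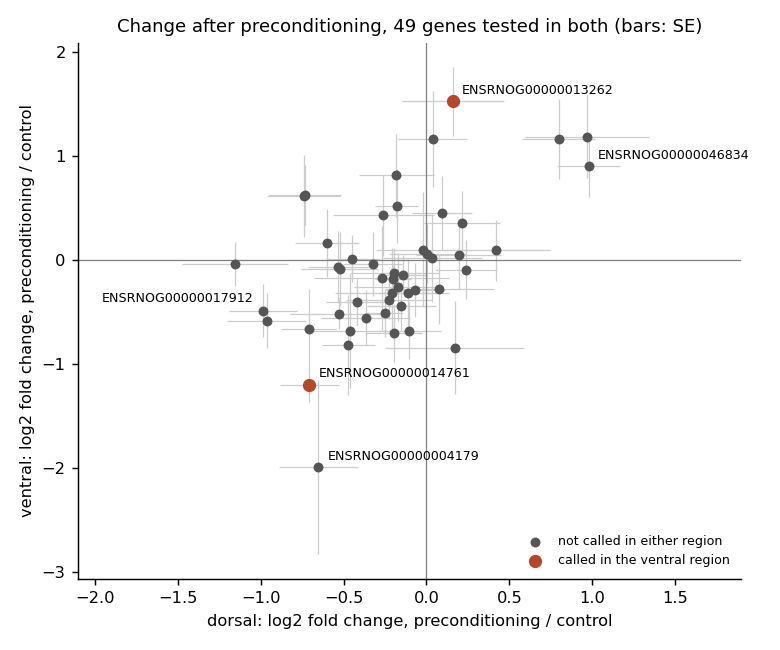
Log2 fold change after preconditioning in the dorsal region (x axis) against that in the ventral region (y axis) for the 49 members tested in both, with standard errors as grey bars. Estimates and calls are those of edgeR's test, by which the 2 genes called in the ventral region are in red, at -1.20 and 1.53, and 0 members were called in the dorsal region.

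Set side by side, 27 of the 49 genes tested in both regions had negative estimates in both, 11 had positive estimates in both and 11 had opposite signs. The share of all genes with equal signs was not computed, so these counts are not read as a trait of the members. Same-numbered dorsal and ventral libraries deviated from their group means together across all genes (mean r 0.316 in controls and 0.197 after preconditioning), and the part of this in the shared signs was not tested. A test of unequal responses in the regions used all 20 libraries. Of the 54 members 0 passed the adjusted threshold in edgeR's test, against 0.0781% of all 14087 genes, and the smallest adjusted p-value was 0.212. Without adjustment, 7 members had a p-value under 0.05, against 6.73% of all genes. All 7 had the more positive estimate in the ventral region, against 489 more positive and 459 more negative of all 14087 genes. That direction was not shared by every fit. Limma-voom gave 2 more positive and 3 more negative, against 775 and 865 of all 14087 genes. The replicate block gave 9 more positive and 4 more negative, against 713 and 896 of all 14087. By DESeq2, limma-voom and the other fits run, the number past the adjusted threshold was also 0. Without ventral control 4, 12 members had an unadjusted p-value under 0.05 by edgeR, against 905 of all 14189 genes. The median difference of the members then moved from 0.04 to 0.29 on the log2 scale.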

How the data were processed

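RNA-seq counts from 20 libraries were used. The authors deposited 1 table of raw counts per Ensembl gene ID, with no normalization. STAR, DESeq2 and the build Rnor_5.0 are named in the submitters' processing notes without versions. The counting tool, annotation and strand setting are not given in the sources used here, so reads of paralogs or overlapping genes may have been split. Libraries were made with a stranded poly(A) kit, per the labels' protocols. Groups came from the titles. Treated columns begin with e where titles begin with p, and were matched by number and region letter.

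CPM in the text is the count divided by the column total. Treatment effects were fitted in edgeR 4.0.16, run under R 4.3.3 (filterByExpr, TMM, quasi-likelihood F-test with robust=TRUE, Benjamini-Hochberg over all genes tested, threshold 0.05) on the 10 libraries of a region, or on all 20 for the interaction. The standard error is the log2 fold change divided by the square root of F. The method was tested on simulated counts. Alternatives were DESeq2 1.42.0, DESeq2 size factors, no filter beyond 1 count, limma-voom 3.58.1 with quality weights, the replicate block, 1 fit of all 20 libraries, each library left out, and other limits of the rule. In the dorsal and ventral tests the replicate block paired control and preconditioned libraries of the same number. In the interaction it paired dorsal and ventral libraries of the same number and treatment. The members, lists and tests were chosen with earlier results of these data known. The genes to be named were the 15 with the highest ratio, the 10 with the highest dorsal mean, those at the 4-fold limit, those called, and those in the gene lists. As no ID had a symbol, at most 2 of each kind are named, per direction for those called. Figures were drawn with matplotlib 3.10.9.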

Additional observations from a re-analysis of the deposited data

Results flagged for a closer look

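Values of the 7 genes named with their libraries, and the summed level of the set, were searched in each group of 5 for a library far from the others by Dixon's ratio. Of 32 groups searched, 6 held one. A rate of 0.05 per group gives about 1.6, but that rate holds for independent groups of normal values. These were raw CPM of genes chosen from the same data, and the summed level contains those genes. The 6 groups were therefore not weighed against chance. Ventral control 4 was the library in 3 of them. It measured 15.6 CPM for ENSRNOG00000004179, with the other ventral controls between 0 and 2.93 CPM. It measured 2.39 CPM for ENSRNOG00000055103, with the others between 0.477 and 0.813 CPM. It measured 13.3 CPM for ENSRNOG00000017912, with the others between 5.82 and 6.80 CPM.

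Dorsal preconditioning 4 was the library in 2 groups. It measured 392 CPM for ENSRNOG00000004179, with the others of its group between 202 and 252 CPM, and 37.6 CPM for ENSRNOG00000017912, with the others between 18.3 and 21.7 CPM. Ventral control 1, the library with the lowest total, measured 0.972 CPM for ENSRNOG00000013262 from 3 counts, with the other ventral controls between 0.382 and 0.538 CPM.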

How the results depend on the processing

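The set held 308 genes with a ratio of at least 2, 16 with a ratio of at least 8 and 84 with a dorsal mean of at least 1 CPM. With TMM-adjusted CPM it held 57, all 54 among them, and with each library left out it held 53 to 62. Members called in the dorsal region numbered 0, and 7 by DESeq2, 7 by limma-voom, 1 without the filter, 1 with the replicate block and 2 with all 20 libraries in 1 fit. They numbered 0 to 3 with each library left out, the 3 without dorsal preconditioning 4. Over all genes the dorsal calls were 37, and 167 by DESeq2, 165 by limma-voom, 55 without the filter and 26 with the replicate block. They were 97 in 1 fit of all 20, and 15 to 50 with each library left out. In the ventral region 2 members were called, and 6 by DESeq2, 5 by limma-voom, 6 with the replicate block, and 2 to 4 with each library left out. Over all genes the ventral calls were 672, and 1051, 1508 and 1261 in those fits, and 432 to 1029 with each library left out. No member was called for the interaction in any of the 25 alternatives. Over all genes it gave 11 calls, and 54 by DESeq2, 97 by limma-voom, 62 with the replicate block, and 6 to 20 with each library left out. The median log2 fold change of the members lay between -0.28 and -0.12 in the dorsal and between -0.20 and 0.01 in the ventral region with each library left out, and it changed sign only without ventral control 4 (0.0134). The ventral estimate of ENSRNOG00000004179 ran from -2.3263 without ventral control 2 to 0.0134 without ventral control 4. The cause was not tested. Same-numbered dorsal and ventral controls deviated together in all 5 pairs (r from 0.200 to 0.393), and preconditioned ones in 4 of 5 pairs over 0.1. Every dorsal control correlated best with the ventral control of its own number. The main interaction test did not use that pairing, and its replicate block did. Control and preconditioned libraries deviated together in 0 of 5 dorsal and 3 of 5 ventral pairs. The main fits took no pairing between treatments from the numbers, in the ventral region as well. The replicate block of the dorsal and ventral tests rests on such a pairing. Ventral counts of 3 or fewer limit the members with the lowest ventral levels.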
